A study of Mus musculus with 6 samples.

Results

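The granzymes are the serine proteases that cytotoxic lymphocytes store in their secretory granules. All 10 genes of the mouse family named granzyme A to G, K, M and N (*Gzma*, *Gzmb*, *Gzmc*, *Gzmd*, *Gzme*, *Gzmf*, *Gzmg*, *Gzmk*, *Gzmm* and *Gzmn*) were taken by symbol, whatever their values, and all 10 were among the 34745 genes listed for each library. The libraries were made from cultured effector CD8+ T cells (Teff), 3 from wild-type (WT) mice and 3 from *Scd-1*-/- mice, to ask how loss of stearoyl-CoA desaturase 1 bears on the state of these cells. This enzyme turns saturated into monounsaturated fatty acids.

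WT mice were purchased C57BL/6J animals, and *Scd-1*-/- mice were donated animals of the germline knockout line B6.129-Scd1tm1Ntam/J, so that every cell of the animal lacked the enzyme. The methods give male mice aged 6 to 8 weeks and do not call them littermates. Splenic CD8+ T cells isolated with beads of both groups were activated for 3 days (5 μg/mL anti-CD3, 0.5 μg/mL anti-CD28, 100 U/mL IL-2), cultured in IL-2 for 3 days without the antibodies, and harvested on day 6. The methods speak in general of independent experiments, but no source ties each of the 3 libraries of a genotype to a mouse or culture of its own, so p-values measure the spread between libraries, which may be technical.

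Granzymes enter target cells through pores made by perforin, and inside them they cleave proteins after defined residues. Granzyme B cuts after aspartate and starts apoptosis through caspases and Bid, whereas granzyme A cuts after basic residues. They are made as inactive precursors, trimmed by cathepsin C, held in the granule on the proteoglycan serglycin, and checked in the cytosol by serpins. In mice, *Gzmc* to *Gzmg* and *Gzmn* are rodent-specific relatives of *Gzmb* in a single gene array.

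That array lay on chromosome 14 of GRCm38 and held 7 of the 10 members within 144.6 kb, from 56117626 to 56262260, all on the minus strand. In rising coordinates its order was *Gzme*, *Gzmd*, *Gzmg*, *Gzmn*, *Gzmf*, *Gzmc* and *Gzmb*. *Gzma* lay at chr13:113093825-113100981 and *Gzmk* at chr13:113171608-113225908, both on the minus strand, with 70627 bases between them. *Gzmm* lay alone at chr10:79689020-79695261 on the plus strand. The transcripts compared had 5 exons each, or 6 for *Gzmn*, and coding lengths between 741 and 792 bases.

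*Gzmd*, *Gzme*, *Gzmf* and *Gzmg* were near copies of each other, with 84.2% to 93.5% of coding bases identical between any pair. *Gzmc* shared 73.7% to 75.3% with these 4 genes, *Gzmn* shared 80.8% to 83.6%, and *Gzmb* shared 69.1% to 77.5% with the other array members. Pairs that included *Gzma*, *Gzmk* or *Gzmm* shared 56.1% to 59.9%. Of the 50-base windows of the *Gzmd* transcript, 21.9% occurred unchanged in another member, against 20.6% for *Gzme*, 19.8% for *Gzmg*, 7.36% for *Gzmf*, 6.06% for *Gzmn*, 4.14% for *Gzmc* and 0% for *Gzmb*. No window of 150 bases was shared. Read length and the treatment of reads that match several genes are not given in the sources used here, so the division of counts among *Gzmd*, *Gzme*, *Gzmf*, *Gzmg* and *Gzmn* is uncertain. Their sum does not depend on that division, but it depends on how reads shared with *Gzmc* were assigned and on whether reads with several matches were kept.

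The likeness extended to the promoters of *Gzmc* to *Gzmg*. The 250 bases upstream of the annotated start are shown, from RefSeq on GRCm38.p6, for members of both main loci, 5′ to 3′, with capitals marking the RUNX letters TGTGGTT on either strand and the cyclic AMP response element (CRE) TGACGTCA.
Gzma (chr13:113100982-113101231, minus strand): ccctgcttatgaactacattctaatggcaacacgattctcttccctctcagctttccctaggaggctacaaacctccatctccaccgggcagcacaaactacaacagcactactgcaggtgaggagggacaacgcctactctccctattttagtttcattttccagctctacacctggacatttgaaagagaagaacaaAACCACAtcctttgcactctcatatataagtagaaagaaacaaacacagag
Gzmb (chr14:56262335-56262584, minus strand): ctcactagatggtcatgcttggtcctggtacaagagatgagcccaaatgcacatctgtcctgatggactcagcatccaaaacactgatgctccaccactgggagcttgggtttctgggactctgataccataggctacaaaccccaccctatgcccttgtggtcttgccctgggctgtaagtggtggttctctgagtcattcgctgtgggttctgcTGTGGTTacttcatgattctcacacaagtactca
Gzmc (chr14:56234658-56234907, minus strand): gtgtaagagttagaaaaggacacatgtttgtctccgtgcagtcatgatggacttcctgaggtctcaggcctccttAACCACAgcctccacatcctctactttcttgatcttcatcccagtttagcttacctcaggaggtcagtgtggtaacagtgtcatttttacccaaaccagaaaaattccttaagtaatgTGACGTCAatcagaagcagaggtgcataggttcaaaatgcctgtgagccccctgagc
Gzmd (chr14:56132594-56132843, minus strand): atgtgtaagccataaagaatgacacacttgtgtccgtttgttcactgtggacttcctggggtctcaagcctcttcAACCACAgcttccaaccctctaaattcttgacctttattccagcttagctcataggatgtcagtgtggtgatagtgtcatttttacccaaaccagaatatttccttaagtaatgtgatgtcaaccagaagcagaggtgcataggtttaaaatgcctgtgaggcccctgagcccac
Gzmg (chr14:56159580-56159829, minus strand): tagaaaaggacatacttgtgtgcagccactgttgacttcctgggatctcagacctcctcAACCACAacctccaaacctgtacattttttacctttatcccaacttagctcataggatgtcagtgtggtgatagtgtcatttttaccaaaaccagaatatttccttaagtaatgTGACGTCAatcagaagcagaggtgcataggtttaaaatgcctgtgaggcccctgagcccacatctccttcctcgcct
Gzmk (chr13:113180966-113181215, minus strand): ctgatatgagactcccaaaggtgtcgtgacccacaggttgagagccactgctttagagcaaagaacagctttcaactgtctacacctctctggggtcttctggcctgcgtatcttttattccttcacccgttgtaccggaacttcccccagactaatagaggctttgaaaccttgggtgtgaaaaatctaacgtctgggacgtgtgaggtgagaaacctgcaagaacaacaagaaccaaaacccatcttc

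Every one of the promoters of *Gzma*, *Gzmb*, *Gzmc*, *Gzmd*, *Gzme*, *Gzmf* and *Gzmg* held the RUNX letters once, and those of *Gzmk*, *Gzmm* and *Gzmn* held none. Over all 32851 promoter windows of this length, 4.40% held a match. RUNX3 is a known regulator of cytotoxic genes in CD8+ T cells. The promoters of *Gzmc* to *Gzmg* are copies rather than separate observations, being 71.7% to 94.8% identical. *Gzmb* shared 49.6% to 53.0% with them and *Gzmn* 50.4% to 53.1%. These ranges lay within the 48.9% to 53.9% that *Gzma*, *Gzmk* and *Gzmm* shared with them. Of the other motifs searched on both strands, the T-box letters GGTGTGA (3.33% of all windows) occurred in *Gzmk* and upstream of the internal start of *Gzmm*, and the AP-1 letters TGANTCA (6.75%) in *Gzmb*. The STAT letters TTCNNNGAA (7.02%) occurred in *Gzmm*, and the NFAT core GGAAAA (20.4%) in *Gzma* and *Gzmm*. The TCF letters CTTTGAT (3.21%) and the E-box CAGCTG (13%) occurred in no member, and none of these matches overlapped the RUNX letters.

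The CRE was searched for after the promoters had been read. It was present in *Gzmc*, *Gzmf* and *Gzmg*, against 1.55% of all promoters, and *Gzmd* and *Gzme* each held 8 letters at the same place that differed from it by 1 base. The aligned stretches are shown because they part members that otherwise share this region, with those 8 letters in capitals.
Gzmc: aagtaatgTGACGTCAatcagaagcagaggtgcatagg
Gzmd: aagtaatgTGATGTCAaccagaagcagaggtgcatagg
Gzme: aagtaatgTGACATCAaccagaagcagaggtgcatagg
Gzmf: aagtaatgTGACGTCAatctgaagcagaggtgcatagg
Gzmg: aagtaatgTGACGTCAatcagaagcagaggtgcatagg
These matches are letters in a window, and no binding was measured here. The RefSeq start of *Gzmk* lies inside its longer GENCODE gene.

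Library totals lay between 14034479 and 15866216 counts, and a count of 0 allows up to 3 counts in a library, or 0.189 to 0.214 CPM (counts scaled to library size), for counting error alone. The targeted gene *Scd1* had 4272, 3074 and 3761 counts in WT and 30, 36 and 20 in *Scd-1*-/-. Replicate 1 of both genotypes stood apart from replicates 2 and 3 on the first principal component of all tested genes (44.2% of the variance), and the genotypes parted on the second (36.2%). The summed FPKM (counts per kilobase of gene and depth of library) of 10 CD8 T cell markers was 3182 to 3932 in WT and 3306 to 3793 in *Scd-1*-/-, and most of the list (CD3 and T cell receptor genes) is shared by other T cells. *Cd8a* itself had an FPKM of 43.2, 47.6 and 47.1 in WT and 36.6, 27.9 and 33.7 in *Scd-1*-/-, with no overlap, and *Cd8b1* had 330, 290 and 275 and 299, 202 and 215, with overlap. Their log2 fold changes were -0.46 (SE 0.14) and -0.30 (SE 0.18), and neither was called. Changes were tested on counts with edgeR's quasi-likelihood test over the 9627 genes whose FPKM averaged 1 or more. Log2 fold changes are *Scd-1*-/- over WT, and a gene was called with a change of 1 or more in either direction together with an unadjusted p under 0.001.

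Summed granzyme transcripts were higher in every *Scd-1*-/- library than in any WT library, and 4 of the 10 members were called. *Gzma*, *Gzmc*, *Gzme* and *Gzmg* rose past the thresholds, by log2 fold changes of 1.81, 3.44, 6.30 and 6.64. *Gzmg*, *Gzme* and *Gzmd* had the 3 highest log2 fold changes of all 9627 genes. None of the 10 members passed the thresholds downward.

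Of the 10 members, 8 reached the FPKM minimum and 4 of these 8 were called higher, against 0.499% of all tested genes called higher. All 8 also had a WT mean FPKM above 1, so none entered the test only through the *Scd-1*-/- libraries. In 7 of 8, every *Scd-1*-/- library lay above every WT library, against 8.40% of all tested genes. The median log2 fold change was 4.46 over the 8 members and -0.001 over all tested genes. *Gzmb* to *Gzmg* lie in the same array and moved together between libraries, so the 8 members are not separate observations. At an adjusted p under 0.05, edgeR with Benjamini-Hochberg adjustment called 0 of the 8 (0.114% of all tested genes in either direction), although 7 of 8 had an unadjusted p under 0.05 (10.1% of all tested genes). The same edgeR test over all 17192 genes with a count gave 7 members an adjusted p under 0.05, beside 0.489% of those genes. Over the 9627 genes DESeq2 called 7 of 8 at that adjusted level, beside 2.76% of all tested genes. Limma called 0, beside 0.177% of all tested genes on log2(FPKM + 1) and 0.156% on log2(FPKM + 0.1).

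The replicate numbers were taken as pairing the libraries across genotypes, which rests on these data alone and which no source states. With the replicate number as a block, 7 members were called (1.19% of all tested genes higher). With it, 8 had an adjusted p under 0.05 in edgeR (2.64% of all tested genes higher). The members called with the block were *Gzma*, *Gzmc*, *Gzmd*, *Gzme*, *Gzmf*, *Gzmg* and *Gzmk*. Among replicates 2 and 3 of both genotypes alone, all 8 were called, beside 3.83% of all tested genes in either direction. Without *Scd-1*-/- replicates 1, 2 and 3 in turn the counts were 7, 2 and 1, beside 1.69%, 0.322% and 0.270% of all tested genes called in either direction. Without WT replicates 1, 2 and 3 in turn they were 1, 0 and 1, beside 1.49%, 0.260% and 0.260% of all tested genes.

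**Figure D1:**
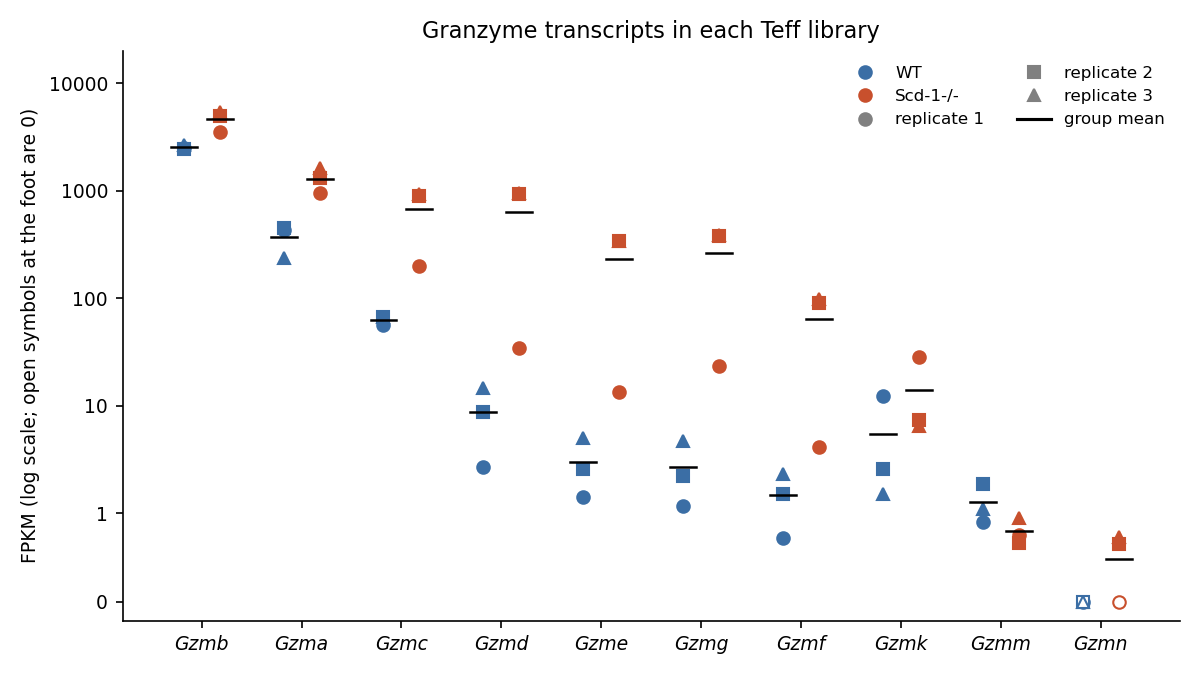
FPKM of the 10 granzyme genes (log scale) in each of the 3 WT and 3 *Scd-1*-/- libraries, with symbols for the replicate number and a bar for the group mean. The *Scd-1*-/- libraries lie above the WT libraries in 7 genes, *Gzma* to *Gzmg*, and *Scd-1*-/- replicate 1 lies far below replicates 2 and 3 for *Gzmd*, *Gzme*, *Gzmf* and *Gzmg*.

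*Gzmb*, the main inducer of apoptosis among the granzymes, was the most abundant member in every library. Its FPKM was 2496, 2428 and 2668 in WT replicates 1, 2 and 3 and 3509, 4955 and 5416 in *Scd-1*-/- replicates 1, 2 and 3. The groups did not overlap, and the WT libraries lay close together while *Scd-1*-/- replicate 1 was the lowest of its group. The log2 fold change was 0.89 (SE 0.17), under the size threshold, with an adjusted p of 0.101 in edgeR after Benjamini-Hochberg adjustment. With the replicate block in edgeR it was 0.87, with an adjusted p of 0.0208. Without *Scd-1*-/- replicate 1 it was 1.06, and *Gzmb* was called. By mean FPKM *Gzmb* stood 14th of all listed genes in WT and 5th in *Scd-1*-/-.

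*Gzma*, a tryptase-like member that is abundant in cytotoxic cells, was the next most abundant. Its FPKM was 428, 451 and 237 in WT and 956, 1310 and 1611 in *Scd-1*-/-. Every *Scd-1*-/- library exceeded the highest WT library by at least 2.16-fold on the CPM scale. The log2 fold change was 1.81 (SE 0.29), with an adjusted p of 0.0847 in edgeR after Benjamini-Hochberg adjustment and of 0.0170 with the replicate block. Its call was lost without WT replicate 2 and without *Scd-1*-/- replicate 2 or 3, and the log2 fold changes over the 6 fits that each left out a library ran from 1.56 to 1.99.

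*Gzmc*, the array neighbour of *Gzmb*, was expressed in all WT libraries at about the same level, with an FPKM of 55.8, 66.8 and 66.3. It reached 199, 892 and 931 in *Scd-1*-/-. The *Scd-1*-/- libraries therefore split, with replicate 1 between the WT group and replicates 2 and 3. The log2 fold change was 3.44 (SE 0.53, adjusted p = 0.0816 in edgeR after Benjamini-Hochberg adjustment), and 3.18 with the block (adjusted p = 0.00694). The call was lost without each of the 3 WT libraries.

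The 4 near copies had low levels in WT. *Gzmd* had 39, 119 and 199 counts in WT (FPKM 2.67, 8.80 and 14.5) and 518, 12603 and 14551 counts in *Scd-1*-/- (FPKM 34.5, 927 and 951). *Gzmg* had 16, 28 and 61 counts in WT (FPKM 1.16, 2.19 and 4.72) and 329, 4856 and 5582 in *Scd-1*-/- (FPKM 23.2, 379 and 387). In both genes even the lowest *Scd-1*-/- library, replicate 1, exceeded the highest WT library, by 2.48-fold for *Gzmd* and 5.15-fold for *Gzmg* on the CPM scale. *Gzme* had 20, 33 and 65 counts in WT and 192, 4386 and 4984 in *Scd-1*-/-. *Gzmf* was the least abundant of the 4, with 8, 19 and 30 counts in WT and 58, 1142 and 1412 in *Scd-1*-/-. Replicate 1 was the lowest library within each genotype for all 4 genes.

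The fitted changes of these 4 genes were large and their errors were large too. For *Gzmg* the log2 fold change was 6.64 (SE 1.12) and for *Gzme* 6.30 (SE 1.19), and both passed the thresholds. *Gzmd* at 6.24 (SE 1.24, unadjusted p = 0.00117) and *Gzmf* at 5.47 (SE 1.14, unadjusted p = 0.00149) missed the p threshold in edgeR's quasi-likelihood test over the 9627 genes. Both passed in the fit to all 17192 genes with a count (unadjusted p = 1.3e-04 and 1.9e-04 in edgeR). With the replicate block in the edgeR fit both passed, at 5.85 and 5.29, each with an adjusted p of 0.00195. The mean level of *Scd-1*-/- replicates 2 and 3 exceeded that of *Scd-1*-/- replicate 1 by 27.0-fold for *Gzmd*, 25.2-fold for *Gzme*, 22.7-fold for *Gzmf* and 16.4-fold for *Gzmg*. Without *Scd-1*-/- replicate 1 all 4 passed, at 6.80 for *Gzmd*, 6.86 for *Gzme*, 6.03 for *Gzmf* and 7.18 for *Gzmg*. Over the 6 fits that each left out a library the values ran from 5.81 to 6.81 for *Gzmd*, 5.90 to 6.86 for *Gzme*, 5.01 to 6.03 for *Gzmf* and 6.24 to 7.30 for *Gzmg*, the last being highest without WT replicate 3. *Gzme* kept its call in no other fit with a library left out, and *Gzmg* kept it in 1 other, without *Scd-1*-/- replicate 2. The call of *Gzme* was also lost at an FPKM minimum of 5 (unadjusted p = 0.00102 in edgeR). It was lost as well by limma on log2(FPKM + 1) and log2(FPKM + 0.1) (unadjusted p = 0.00287 and 0.00239).

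*Gzmd*, *Gzme*, *Gzmf*, *Gzmg* and *Gzmn* were also summed, so that the division of reads among these 5 genes did not enter. The sum held 83, 199 and 355 counts in WT and 1097, 22994 and 26538 in *Scd-1*-/-, with no overlap. Its fitted log2 fold change as a single feature was 6.28 (SE 1.19), and 5.86 to 6.85 when each library was left out. Within the summed FPKM of the first 4 genes, *Gzmd* took 45.7% to 58.5% in WT and 45.9% to 53.5% in *Scd-1*-/-, so its share of the 4 overlapped between the genotypes. *Gzmg* took 14.6% to 19.9% in WT and 21.8% to 30.9% in *Scd-1*-/-, and *Gzmf* 8.78% to 9.97% and 5.16% to 5.53%. Neither of these 2 ranges overlapped between the genotypes.

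*Gzmn*, the remaining array member, was listed at 0 counts in all WT libraries and in *Scd-1*-/- replicate 1, and had 7 and 9 counts in *Scd-1*-/- replicates 2 and 3. Against a floor of 3 counts per WT library, its mean of 0.360 CPM in *Scd-1*-/- was at least 1.73-fold higher. It lay under the FPKM minimum, and in the fit to all 17192 genes with a count its adjusted p was 0.468 in edgeR after Benjamini-Hochberg adjustment.

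*Gzmk*, a tryptase-like member often used to mark early effector and memory CD8+ T cells, followed another order. Its FPKM was 12.3, 2.55 and 1.51 in WT and 28.4, 7.33 and 6.52 in *Scd-1*-/-. The groups overlapped, because WT replicate 1 exceeded *Scd-1*-/- replicates 2 and 3. Replicate 1 was the highest library of each genotype, where it had been the lowest for *Gzmd*, *Gzme*, *Gzmf* and *Gzmg*. The log2 fold change of *Gzmk* was 1.37 (SE 0.87, adjusted p = 0.661 in edgeR after Benjamini-Hochberg adjustment). Between libraries of the same number it was 1.19, 1.45 and 2.02 for replicates 1, 2 and 3, and with the replicate block it passed at 1.59 (adjusted p = 0.00890 in edgeR). Without the block it was 0.34 without *Scd-1*-/- replicate 1 and 2.83 without WT replicate 1.

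*Gzmm*, a member that cleaves after methionine and leucine and is best known from natural killer cells, was low throughout. It had 22, 46 and 27 counts in WT and 17, 13 and 25 in *Scd-1*-/-. The groups overlapped. In the fit to all genes with a count its log2 fold change was -0.86 (SE 0.48, adjusted p = 0.686 in edgeR after Benjamini-Hochberg adjustment). It was the only member with a fitted value below 0.

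**Figure D2:**
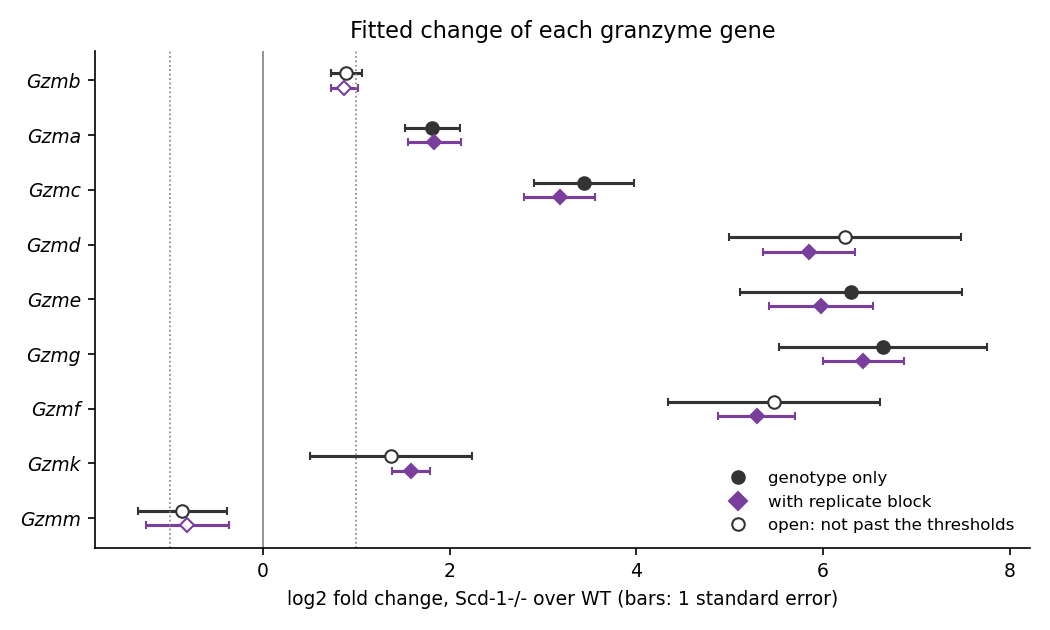
Fitted log2 fold change (*Scd-1*-/- over WT, x axis) of 9 granzyme genes with 1 standard error, from the fit on genotype alone (circles) and with the replicate number as a block (diamonds), with filled symbols for genes past the thresholds and dotted lines at a size of 1. The block leaves the estimates of *Gzmd* to *Gzmg* near 6 and narrows their errors (*Gzmd* from 1.24 to 0.49), and *Gzmn* is left out because its WT libraries are at 0.

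Levels within a genotype moved together for most members. The deviations of log2 levels from the genotype means, over the 6 libraries, correlated at 0.90 to 1.00 between any pair of *Gzmb* to *Gzmg*. *Gzma* correlated with these 6 genes at 0.26 to 0.50, and *Gzmk* at -0.60 to -0.86. The 6 values share the 2 genotype means and the split of replicate 1 from replicates 2 and 3, and are given as a description.

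The make-up of the family shifted with its total. All 10 members together took 0.400%, 0.392% and 0.408% of all counts in WT replicates 1, 2 and 3 and 0.614%, 1.07% and 1.17% in *Scd-1*-/-, so the groups did not overlap. On the CPM scale the summed level averaged 4012 ± 81.2 for WT and 9652 ± 2983 for *Scd-1*-/- (SD, n = 3 each), a ratio of 2.41. *Gzmb* made up 84.7% ± 3.73 of summed granzyme FPKM in WT and 61.6% ± 10.4 in *Scd-1*-/- (SD, n = 3 each). *Gzma* took 12.5% ± 3.97 and 17.1% ± 2.71, *Gzmc* 2.11% ± 0.215 and 7.92% ± 3.25, and *Gzmd* 0.290% ± 0.197 and 6.97% ± 5.42 (SD, n = 3 each). Without *Gzmb*, the summed level of *Gzmc* to *Gzmg* and *Gzmn* differed by 4.60 on the log2 scale, and by 4.22 (without *Scd-1*-/- replicate 3) to 5.11 (without *Scd-1*-/- replicate 1) when each library was left out.

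**Figure D3:**
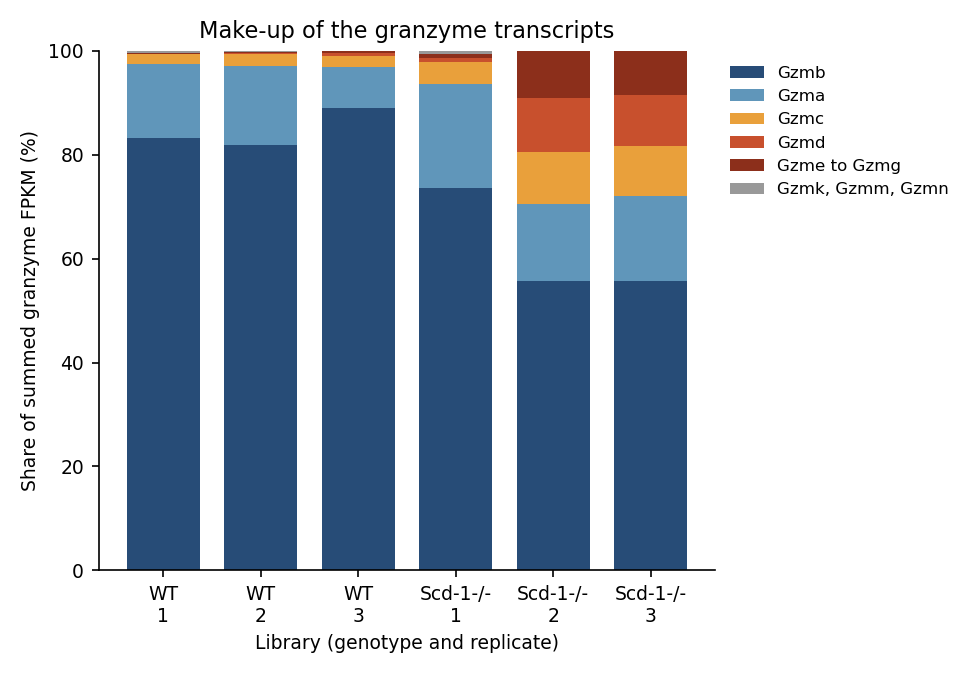
Share of each member or group of members in the summed granzyme FPKM (y axis, %) of each library. *Gzmb* fills 81.9% to 88.9% of the WT bars, 73.6% of the bar of *Scd-1*-/- replicate 1, and 55.7% and 55.6% of those of replicates 2 and 3, where *Gzmd* fills 10.4% and 9.76%.

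The genes beside the array were read as well, and whether position bears on their levels was not tested. On the low-coordinate side lie cathepsin G (*Ctsg*, 15052 bases away) and mast cell protease genes, members of the same protease family that are mostly used by mast cells and other myeloid cells. *Ctsg* had 0 counts in all WT libraries and in *Scd-1*-/- replicate 1, and 23 and 23 in *Scd-1*-/- replicates 2 and 3, at least 5.02-fold higher on the group mean against the floor of 3 counts per WT library. *Mcpt8* had 5, 9 and 3 counts in WT and 8, 110 and 125 in *Scd-1*-/-, with overlapping groups. It was not called on genotype alone and passed with the replicate block (log2 fold change 3.56, adjusted p = 0.0264 in edgeR after Benjamini-Hochberg adjustment). In both genes *Scd-1*-/- replicates 2 and 3 were the high libraries, as for *Gzmd* and, away from this locus, for *Id2*. Farther out, *Cma1* had 0 counts in WT and 8, 11 and 25 in *Scd-1*-/-, at least 4.69-fold higher against the same floor. *Cma2*, *Mcpt1*, *Mcpt2*, *Mcpt4* and *Mcpt9*, which lie between *Cma1* and *Mcpt8*, had 0 counts in all 6 libraries. *Atp12a*, the next protein-coding gene on the high-coordinate side (102808 bases away), also had 0.

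Beyond these, *Sdr39u1* on one side had 52.0, 64.8 and 72.4 CPM in WT and 63.1, 64.4 and 70.8 in *Scd-1*-/-, with overlapping groups. *Khnyn*, the next gene out, had 87.5, 78.2 and 75.6 CPM in WT and 68.2, 59.5 and 44.3 in *Scd-1*-/-, so its *Scd-1*-/- libraries lay below its WT libraries. Within the array, *Gzmb* at the high-coordinate end had the smallest log2 fold change of the 6 tested members.

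**Figure D4:**
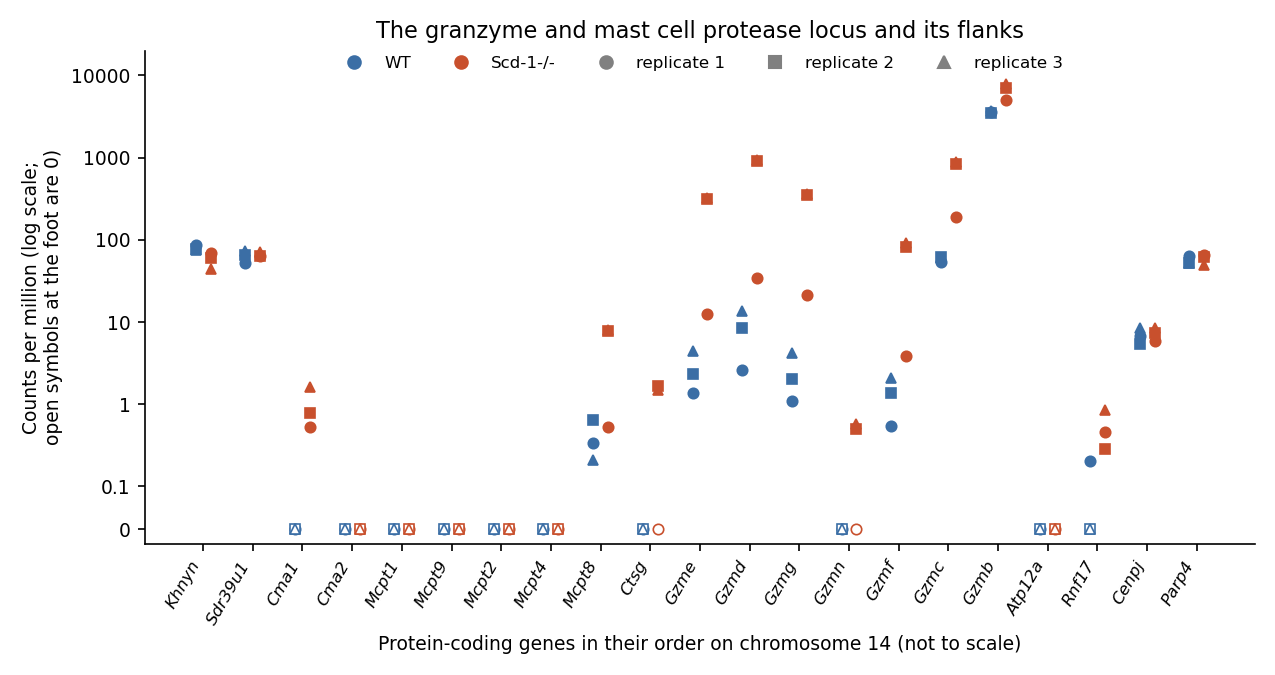
CPM (log scale) in each library for the protein-coding genes around the array, in chromosomal order and not to scale, with open symbols at the foot for 0. The genotypes separate from *Gzme* to *Gzmb* with the exception of *Gzmn*, the low levels of *Mcpt8* and *Ctsg* are raised in *Scd-1*-/- replicates 2 and 3, and the flanking genes *Khnyn*, *Sdr39u1*, *Cenpj* and *Parp4* differ far less between libraries than *Gzmd* does.

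The partners of the granzymes were read from lists by role, with 92 genes at the FPKM minimum. Of these, 3 were called higher (0.499% of all tested genes) and 2 lower (0.239% of all tested genes). Among 11 genes of granule cargo and precursor processing, perforin (*Prf1*) alone was called. Its FPKM was 44.9, 23.8 and 30.6 in WT and 143, 173 and 172 in *Scd-1*-/-, with no overlap, and *Scd-1*-/- replicate 1 lay much closer to replicates 2 and 3 than it did for *Gzmd*. The log2 fold change was 2.31 (SE 0.25, adjusted p = 0.0259 in edgeR after Benjamini-Hochberg adjustment), and *Prf1* was called in every alternative fit. Its adjusted p in edgeR was 0.138 and 0.190 without WT replicates 2 and 3 in turn. Without *Scd-1*-/- replicates 2 and 3 in turn it was 0.0991 and 0.163. *Nkg7*, a granule membrane protein, had a log2 fold change of 0.80 (SE 0.20, not called), with every *Scd-1*-/- library above every WT library. *Srgn*, which encodes serglycin, had 0.42 (SE 0.15) and *Ctsc*, which encodes cathepsin C, had 0.064 (SE 0.16, overlapping groups, and -0.041 without *Scd-1*-/- replicate 3), and neither was called.

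Of 14 genes for granule docking and fusion, *Sytl2*, a Rab27 effector that tethers granules to the membrane, was called. It had an FPKM of 3.71, 2.59 and 3.24 in WT and 6.57, 8.27 and 8.03 in *Scd-1*-/-, a log2 fold change of 1.28 (SE 0.19), and lost its call without WT replicate 3. *Rab27a* had a log2 fold change of 0.39 (SE 0.14) and *Unc13d*, a priming factor, -0.037 (SE 0.12), and neither was called. The median over the 14 genes was 0.10, beside -0.001 over all tested genes.

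None of 7 serpin genes was called on genotype alone over the 6 libraries. *Serpinb9*, the mouse inhibitor of granzyme B, had an FPKM of 15.2, 5.21 and 6.85 in WT and 22.0, 19.3 and 19.3 in *Scd-1*-/-. The groups did not overlap, and WT replicate 1 was well above the other WT libraries. The log2 fold change was 1.16 (SE 0.38, adjusted p = 0.361 in edgeR after Benjamini-Hochberg adjustment), and 1.32 with the block, where it passed (adjusted p = 0.0271 in edgeR). It also passed without WT replicate 1, at 1.78, and among replicates 2 and 3, at 1.72. *Serpinb9b*, a relative of *Serpinb9*, had 22, 10 and 24 counts in WT and 36, 325 and 349 in *Scd-1*-/-, a log2 fold change of 3.63 (SE 0.82) that was called in neither fit. *Serpina3f* had 384, 439 and 412 counts in WT and 81, 163 and 182 in *Scd-1*-/-, and passed with the block, at -1.64, as 0.717% of all tested genes did downward.

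Of 19 transcription factor genes linked to granzyme expression, 1 was called higher and 2 lower. *Eomes*, a T-box factor of cytotoxic lymphocytes, had an FPKM of 3.62, 4.18 and 4.07 in WT and 9.34, 14.5 and 13.7 in *Scd-1*-/- (log2 fold change 1.69, SE 0.20, adjusted p = 0.0359 in edgeR after Benjamini-Hochberg adjustment). *Tcf7*, which encodes the naive and memory T cell factor TCF-1, had 43.8, 78.2 and 66.0 in WT and 7.51, 6.47 and 5.55 in *Scd-1*-/- (log2 fold change -3.24, SE 0.24, adjusted p = 0.00434 by the same test). Neither gene's groups overlapped. *Id3* fell by 1.83 on the log2 scale (SE 0.32), and its call was lost without any 1 of the libraries other than *Scd-1*-/- replicate 1. *Tbx21*, the other T-box factor, had 0.043 (SE 0.30), *Runx3* 0.076 (SE 0.18) and *Prdm1*, which encodes BLIMP-1, 0.88 (SE 0.27), and none of the 3 was called. The first 2 of these changed sign in some alternative fits, *Tbx21* to -0.18 without WT replicate 1 and *Runx3* to -0.16 among replicates 2 and 3. *Prdm1* was called without WT replicate 1, at 1.21, and among replicates 2 and 3, at 1.33.

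None of 14 genes of IL-2 receptor and STAT signalling was called, with log2 fold changes between -0.56 and 0.48. IL-2 was in the medium of both groups throughout. None of 14 intracellular granzyme targets was called either, with values between -0.34 and 0.37. Of 11 other effector molecules none was called without the block, and 3 were called with it (1.19% of all tested genes higher), *Ifng* (1.57), *Ccl4* (1.12) and *Ccl5* (1.69). In these 3 genes replicate 1 was the highest library of each genotype, as for *Gzmk*. *Ccl5* had an FPKM of 234, 45.8 and 38.0 in WT and 399, 181 and 185 in *Scd-1*-/-, with WT replicate 1 above *Scd-1*-/- replicates 2 and 3.

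**Figure D5:**
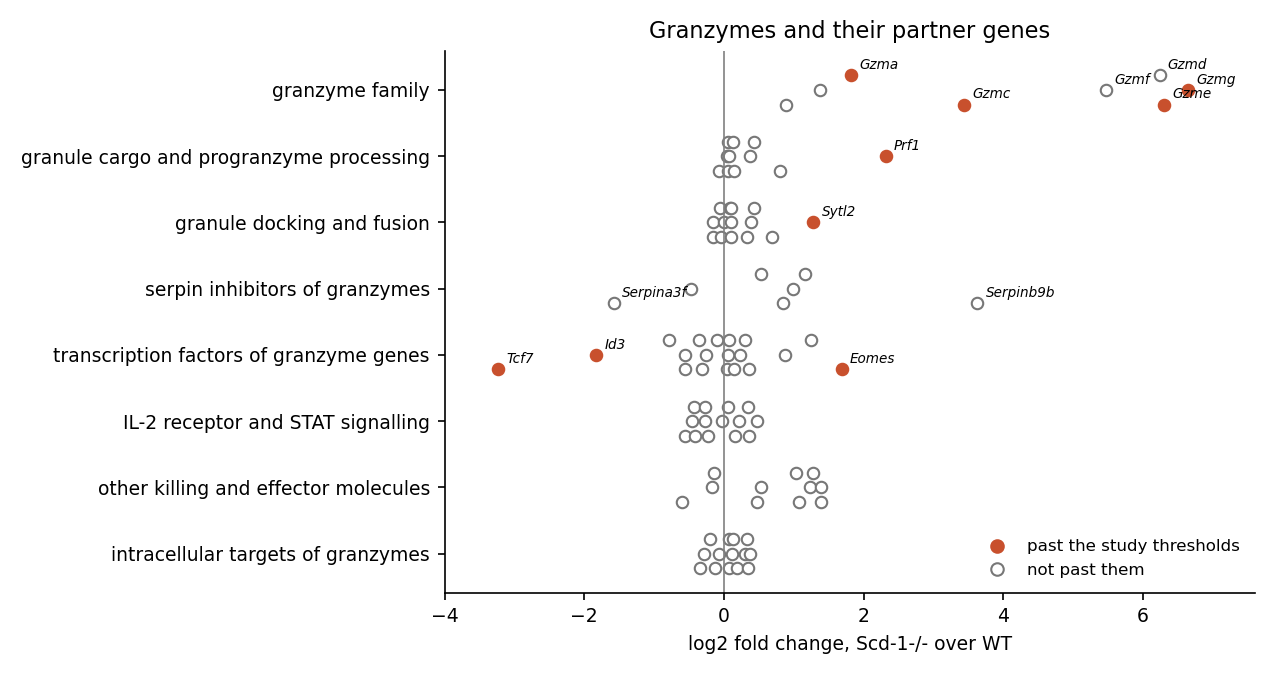
Log2 fold change (*Scd-1*-/- over WT, x axis) of each tested gene in the granzyme family and in 7 lists of partner genes, from the fit on genotype alone, with filled symbols for genes past the thresholds. The called partner genes are *Prf1*, *Sytl2*, *Eomes*, *Tcf7* and *Id3*, and 3 granzyme genes lie above 6.

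The genes whose log2 levels followed the summed array most closely over the 6 libraries were *Id2*, *Khdc1a*, *mt-Atp8*, *Trgv2*, *Capn2* and *Aoah*, with Pearson r of 0.996 to 0.992. Without *Gzmb* in the sum they were *Id2*, *Tac4*, *Pilrb1*, *Trgv2*, *Klrb1c* and *Il18rap*. *Id2*, an inhibitor of E proteins in effector T cells, had an FPKM of 103, 104 and 124 in WT and 154, 312 and 310 in *Scd-1*-/-, with replicate 1 the lowest of the *Scd-1*-/- group as for *Gzmd*. Its log2 fold change was 1.25 (SE 0.26, adjusted p = 0.146 in edgeR after Benjamini-Hochberg adjustment), and it passed with the block at 1.19. With 6 libraries in 2 genotypes and a split of replicate 1, such likeness is a description only.

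Other lymphocytes and mast cells also make granzymes or their relatives, and levels of some of their markers differed between the genotypes. The summed FPKM of 13 natural killer cell markers was 25.9 to 33.5 in WT and 56.1 to 155 in *Scd-1*-/-, with *Tyrobp*, *Fcer1g* and *Sh2d1b1* called and *Klra8* and *Klra4* at 3 counts or fewer in every library. With the block 6 of the 9 tested markers of this list were called (1.19% of all tested genes higher), *Klrb1c* among them at 2.88. In 7 of the 9 every *Scd-1*-/- library lay above every WT library (8.40% of all tested genes). *Ncr1*, which encodes the natural killer cell receptor NKp46, had 0, 4 and 5 counts in WT and 0, 0 and 2 in *Scd-1*-/-. *Itga2*, which encodes CD49b, had a log2 fold change of -0.15 (SE 0.68). Both lay under the FPKM minimum, and neither was called. For 4 measured gamma delta T cell markers the sum was 1.56 to 2.61 and 7.83 to 17.1. *Trdc*, which was called, carried most of it in every library, whereas *Sox13*, *Zbtb16* and *Trdv4* had 6 counts or fewer in every library. For 8 mast cell and basophil markers the ranges overlapped, at 1.29 to 2.59 and 2.04 to 13.4. In that list *Mcpt8* and *Cpa3* (log2 fold changes 3.77 and 1.84) were high in *Scd-1*-/- replicates 2 and 3, *Kit* (-0.86) and *Hdc* (-1.18) had negative values, none of these 4 was called, and *Fcer1a*, *Ms4a2*, *Mcpt4* and *Gata2* were at 3 counts or fewer. The sum was 0.877 to 3.43 and 4.004 to 10.1 for 11 myeloid markers, 146 to 269 and 97.6 to 146 for 8 B cell markers, and 6.26 to 12.3 and 8.03 to 11.3 for 5 CD4 T cell markers. Of the myeloid markers, *Cd14* passed in the fit to all genes with a count (log2 fold change 2.405), and *Itgax* passed only with the block (1.78). *Lyz2*, *Adgre1*, *S100a8*, *S100a9*, *Mpo* and *Elane* had 3 counts or fewer in every library. Activated CD8+ T cells can express several of the natural killer cell markers. The part of these cell types in the granzyme values was not tested, and in bulk libraries more cells of a type and more RNA per cell cannot be told apart.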

How the data were processed

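RNA from 3 WT and 3 *Scd-1*-/- Teff libraries was sequenced. The labels name Trizol and polyA RNA but the methods a column and a kit for stranded total RNA, so strandedness is unsure. Per the labels and methods, the authors aligned reads to GRCm38 with HISAT2 and counted them with StringTie 1.3.0. The authors deposited raw counts per gene, and FPKM values that hold no TMM factor.

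Counts were tested with edgeR 4.0.16 (R 4.3.3; glmQLFit and glmQLFTest, TMM scaling, genotype only) over the 9627 genes whose FPKM averaged 1 or more, and p-values were adjusted over these by the Benjamini-Hochberg method. Members under the minimum were read from a fit to 17192 genes with a count. SE is the log2 fold change divided by the square root of F. Limma 3.58.1 on log2(FPKM + 1) and log2(FPKM + 0.1) and DESeq2 1.42.0 were alternatives. The steps were tested on simulated data. For a single value the smallest exact permutation p with 3 libraries a group is 0.1.

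Deviations from the group means across genes correlated at 0.618, 0.324 and 0.493 between libraries numbered 1, 2 and 3, so the numbers were taken as pairing them. This rests on the data alone, as no source says what a number stands for, and WT replicate 3 correlated with *Scd-1*-/- replicate 2 at 0.422.

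Genes were placed by GENCODE M21 (98.6% of identifiers matched). Identities were computed with edlib 1.3.9.post1, and promoters came from RefSeq, with motifs searched on both strands. Named are the 10 members, partner genes that passed or had the largest changes in their list, some partners fixed by role, neighbours, and the 6 genes most alike in pattern by Pearson r. *Ifng*, *Ccl4* and *Ccl5*, *Rab27a*, *Unc13d* and the flanking genes were named after their values were seen. Members, lists and tests were chosen with earlier results of these data known.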

Additional observations from a re-analysis of the deposited data

How the results depend on the processing

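Fold changes of the 8 tested members kept their direction in every alternative fit, and those of *Gzmm* and *Gzmn* in the fits run for them (the block and each library left out), while the calls depended on the fit. Replicates 2 and 3 were fitted alone as 1 alternative, and a range is given for fits that each left out a library. Members past the thresholds numbered 4, with 6 without an FPKM minimum and by DESeq2, and 3 at a minimum of 5 and by either form of limma. They numbered 7 under the replicate block, 8 for replicates 2 and 3, and 0 to 7 with a library left out. Members with an adjusted p under 0.05 numbered 0, with 7 without an FPKM minimum, 7 by DESeq2, 8 under the block, 8 for replicates 2 and 3, and 0 to 7 with a library left out. Partner genes past the thresholds numbered 5, with 9 without a minimum, 9 by DESeq2, 12 under the block, 21 for replicates 2 and 3, and 3 to 11 with a library left out. Partner genes with an adjusted p under 0.05 numbered 3, with 5, 14, 22 and 42 under the same 4 alternatives and 0 to 12 with a library left out. All genes past the thresholds numbered 71, with 148 without a minimum, 43 at a minimum of 5, 161 by DESeq2, 184 under the block, 369 for replicates 2 and 3, and 25 to 163 with a library left out. All genes with an adjusted p under 0.05 numbered 11, with 84, 18, 266, 452 and 1213 under the same 5 alternatives, 17 by limma on log2(FPKM + 1), and 2 to 182 with a library left out. The cause of these shifts was not tested. With a library left out, *Ctsc* ran from -0.041 to 0.182 (negative without *Scd-1*-/- replicate 3), *Tbx21* from -0.178 to 0.271 (negative without WT replicate 1 and without replicate 2 or 3 of *Scd-1*-/-) and *Runx3* from -0.104 to 0.192 (negative without *Scd-1*-/- replicate 1). *Runx3* was -0.156 for replicates 2 and 3. The summed granzyme level moved by less than the spread between replicates in each alternative, with a log2 ratio of 1.09 to 1.50 when a library was left out. The sum without *Gzmb* and the single feature of *Gzmd* to *Gzmg* and *Gzmn* with each library left out were chosen after seeing the data. *Gzmm* and *Gzmn*, with few counts, are limited by depth.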
